A study of Mus musculus with 11 samples.

Results

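Nuclear lamins and their partners at the inner nuclear membrane were examined in sorted retinal endothelial cells. The set held 8 of the 55359 genes counted in each of 11 mice: the lamin genes Lmna, Lmnb1 and Lmnb2, the membrane protein genes Lbr, Tmpo, Emd and Lemd3, and the chromatin-binding Banf1. Symbols were matched to the Ensembl identifiers of the count tables through GENCODE. The set was selected on the p-value of Lmnb2, which was 1 of the lowest between OSM and PBS in these same mice, so the values of that comparison are given below as a description. All 8 genes passed the filter on low counts, which retained 17050 genes.

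Vascular endothelial cells that were CD31-positive and CD45-negative had been sorted at P17 from C57BL/6 mice (C57BL/6J in the methods) in the oxygen-induced retinopathy (OIR) model, in which high oxygen followed by room air leads to pathological vessel growth. The 5 OSM-treated mice had received oncostatin M, a cytokine of the IL-6 family, and the 6 control mice PBS, in an intravitreal volume of 0.5 µL at P12. The OSM solution held 100 ng/µL. Both retinas of a mouse were pooled into 1 sample. The labels give each mouse 1 treatment, whereas the methods describe contralateral eyes as PBS controls and do not say whether both eyes of a sequenced mouse were treated alike. The mice came from 3 litters, which were also the 3 OIR runs, so that litter and run cannot be told apart. Litters 1 and 2 gave 2 OSM-treated and 2 PBS-treated mice each, and litter 3 gave 1 OSM-treated mouse (mouse 9) and 2 PBS-treated mice.

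The nuclear lamina is a meshwork of intermediate filament proteins that lines the inner nuclear membrane and anchors chromatin. A-type lamins are spliced from Lmna, and the B-type lamins B1 and B2 are encoded by Lmnb1 and Lmnb2 and stay farnesylated and membrane-bound. The lamin B receptor (Lbr), the lamina-associated polypeptides 2 (Tmpo), emerin (Emd) and MAN1 (Lemd3) link the lamina to the membrane or to chromatin, and the last 3 share the LEM domain, which binds barrier-to-autointegration factor (Banf1) on DNA. In dividing cells the lamina is taken apart by phosphorylation at mitosis and rebuilt afterwards.

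Library totals were 26697990 to 56033479 reads (median 32500202), and mouse 9 had the deepest library and mouse 3 the shallowest. Mouse 3, a PBS-treated mouse, had 20898 genes with reads, against 16635 to 17697 in the other mice. The summed normalized counts of 8 endothelial markers, including Pecam1 and Cdh5, were 371400 to 441600 in OSM-treated and 331700 to 426700 in PBS-treated mice. All 7 mural markers (Pdgfrb, Rgs5 and others) had lower fitted levels with OSM, with sums of 13330 to 27820 against 10320 to 56750. Of these, 1 had an unadjusted p under 0.05 by edgeR, beside 2.71% of all genes tested in the lower direction. The sums of 5 rod markers ranged from 5329 to 144300 with OSM and from 9774 to 39580 with PBS. The sums of 4 Müller glia markers were 6405 to 11470 against 5499 to 10130. The sums of 5 leukocyte markers, Ptprc (CD45) among them, were 9.78 to 102 against 7.82 to 453. Those of 5 erythroid and platelet markers were 9672 to 31130 against 3637 to 15900. Of the 4 tested, 3 had an unadjusted edgeR p under 0.05, all 3 with higher levels in OSM-treated mice, beside 2.25% of all genes in that direction. No marker was at 0 in every mouse. The part of these other cells in the results below was not tested. In pooled cells, fewer cells with a transcript and less of it per cell cannot be told apart.

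Lmnb2, the gene that led to this choice, was lower in OSM-treated mice. Counts are given scaled to the mean effective library (normalized counts). The OSM-treated mice held 1063 and 1380 in litter 1, 868 and 831 in litter 2, and 659 in litter 3. The PBS-treated mice held 2399 and 2210 in litter 1, 1367 and 1483 in litter 2, and 2205 and 1253 in litter 3. Every OSM-treated mouse lay below both PBS-treated mice of its own litter, although the groups as a whole overlapped, because mouse 2 of litter 1 (1380) lay above the PBS-treated mice with 1367 and 1253. The means were 960 ± 275 (SD, n = 5) with OSM and 1820 ± 505 (SD, n = 6) with PBS. In the edgeR model with litter as a term, the log2 fold change was -0.97 ± 0.19 (SE), or 51.2% of the PBS level. The log2 differences within litters 1, 2 and 3 were -0.93, -0.74 and -1.33. Its unadjusted p of 0.000384, the value behind the choice, was number 4 among the 17050 genes, between 0.000274 and 0.000407 for the neighbouring genes.

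The promoter of Lmnb2 is shown because it belongs to the gene with the largest fitted difference of the set, beside that of Tmpo, whose fitted difference was the smallest. Both windows hold the start of the canonical transcript, run 250 bases before to 50 bases after the RefSeq start, and were placed on the minus strand of GRCm39 by exact match from the RefSeq promoter table (GRCm38.p6). The Lmnb2 window is chr10:80754030-80754329 and the Tmpo window chr10:91007432-91007731. Capitals mark CCAAT, the box bound by the factor NF-Y, which was searched on both strands.
Lmnb2: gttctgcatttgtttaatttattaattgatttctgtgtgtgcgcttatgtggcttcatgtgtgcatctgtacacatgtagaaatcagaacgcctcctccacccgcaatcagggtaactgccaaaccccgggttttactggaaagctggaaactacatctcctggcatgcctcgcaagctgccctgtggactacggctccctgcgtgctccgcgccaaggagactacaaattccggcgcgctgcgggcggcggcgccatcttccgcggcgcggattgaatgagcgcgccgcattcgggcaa
Tmpo: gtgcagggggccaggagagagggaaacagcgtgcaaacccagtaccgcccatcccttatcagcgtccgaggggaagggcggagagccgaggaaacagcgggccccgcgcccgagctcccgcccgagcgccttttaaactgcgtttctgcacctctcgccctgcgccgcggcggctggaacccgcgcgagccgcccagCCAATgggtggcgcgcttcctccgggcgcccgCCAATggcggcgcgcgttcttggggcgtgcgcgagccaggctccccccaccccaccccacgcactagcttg
The Lmnb2 window held no CCAAT. The Tmpo window held CCAAT at positions 198 to 202 and 230 to 234, counted from its 5′ end. Of 32851 promoters of this length, 37.4% held CCAAT, and these matches are a description of the letters only. The GC content was 55.3% in the Lmnb2 window and 71.7% in the Tmpo window. Of the 8 genes, 7 had an entry in the table, and Lmnb1 had none. CCAAT was also found among the windows of Lmna, Lbr, Emd, Lemd3 and Banf1. The further windows of Lmnb2 and Tmpo, which do not hold the canonical start, held no CCAAT.

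Lmnb1, the other B-type lamin, was also lower with OSM. The OSM-treated mice held 795 and 869 normalized counts in litter 1, 864 and 898 in litter 2, and 1295 in litter 3. The PBS-treated mice held 931 and 1539 in litter 1, 1493 and 1610 in litter 2, and 1813 and 1617 in litter 3. Here, too, each OSM-treated mouse lay below both PBS-treated mice of its litter, and the groups overlapped through 1 PBS-treated mouse (mouse 3, 931) and 1 OSM-treated mouse (mouse 9, 1295). The means were 944 ± 199 (SD, n = 5) and 1501 ± 300 (SD, n = 6). The log2 fold change was -0.62 ± 0.17 (SE), or 65.1% of the PBS level, with differences of -0.52, -0.81 and -0.40 within litters 1, 2 and 3. Without mouse 3 the fitted value was -0.72, and without mouse 9 it was -0.70.

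The A-type lamin gene Lmna showed no such separation. Its normalized counts were 6385, 8960, 9880, 6771 and 6938 in OSM-treated mice 1, 2, 5, 6 and 9. They were 8823, 5628, 10840, 8775, 12260 and 6171 in PBS-treated mice 3, 4, 7, 8, 10 and 11. The lowest and the highest of all values were both found in PBS-treated mice. The log2 fold change was -0.16 ± 0.21 (SE, 95% interval -0.62 to 0.30), and its sign differed between litters (0.10, -0.25 and -0.33).

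**Figure D1:**
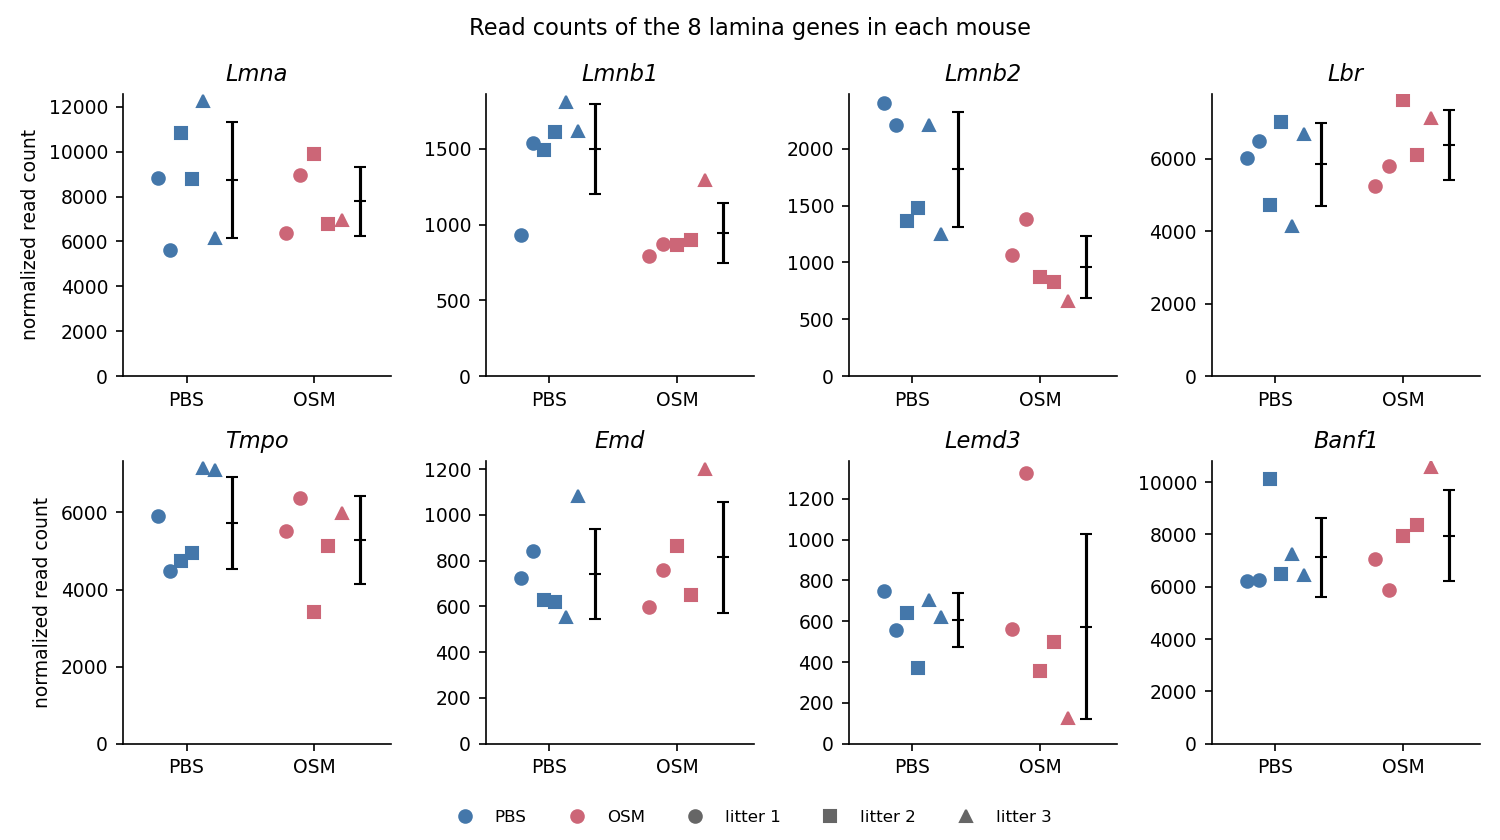
Normalized read counts (vertical axes, each from 0) of the 8 genes in 6 PBS-treated (blue) and 5 OSM-treated (red) mice, with litter as the symbol and black bars for the mean ± SD. For Lmnb1 and Lmnb2, each OSM-treated mouse lies below both PBS-treated mice of its litter, while the other 6 genes overlap within at least 1 litter or differ in direction between litters.

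Of the membrane proteins, Lbr, which binds B-type lamins and heterochromatin and is also a sterol reductase, had 5247 to 7628 normalized counts with OSM (median 6104, n = 5) and 4146 to 7006 with PBS (median 6254, n = 6). Its log2 fold change was 0.12 ± 0.16 (SE, 95% interval -0.23 to 0.47). Tmpo had 3423 to 6366 with OSM (median 5529) and 4492 to 7148 with PBS (median 5427). Its log2 fold change was -0.06 ± 0.13 (SE), with an interval of -0.35 to 0.24. In both genes the groups overlapped over most of their range, and the sign of the difference changed between litters.

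Emd, whose product emerin is the LEM protein lost in a form of Emery-Dreifuss muscular dystrophy, had 596 to 1203 normalized counts with OSM (median 761) and 555 to 1084 with PBS (median 677). The log2 fold change was 0.17 ± 0.24 (SE, 95% interval -0.36 to 0.69). Without mouse 9, which held its highest value, the log2 fold change was 0.03. Banf1 had 5875 to 10560 with OSM (median 7952) and 6216 to 10120 with PBS (median 6471). Its log2 fold change was 0.17 ± 0.14 (SE, 95% interval -0.14 to 0.48) with all mice and 0.01 without mouse 9, again the mouse with the highest value. Mouse 9 was thus the high end of both genes. It was also the only OSM-treated mouse of litter 3, so mouse and litter cannot be told apart. Without litter 3 the log2 fold changes were 0.03 for Emd and 0.01 for Banf1.

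Lemd3, which encodes MAN1 and restrains SMAD signaling, had the widest spread of the set. Its OSM-treated mice held 564 and 1325 normalized counts in litter 1, 356 and 497 in litter 2, and 127 in litter 3. The PBS-treated mice held 748 and 557, 639 and 371, and 704 and 621 in the same order of litters. The highest and the lowest value were both found in OSM-treated mice, and they differed 10.5-fold, against 1.8- to 3.64-fold in the other 7 genes. The 127 normalized counts of mouse 9 rest on 208 reads in the deepest library. The log2 fold change was -0.35 ± 0.47 (SE, 95% interval -1.40 to 0.69) and became 0.14 without mouse 9.

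Across the set, 0 of 8 genes had an adjusted p under 0.05 by edgeR, where 0% of the 17050 genes did and the lowest adjusted p of any gene was 0.92. The fitted level was lower with OSM in 5 of the 8 genes and higher in 3, where 51.6% of all genes were lower, and the median log2 fold change was -0.11, or -0.06 without Lmnb2, beside -0.01 over all genes tested. Lmnb1 and Lmnb2 had an unadjusted p under 0.05, both in the lower direction, in which 2.71% of all genes had one. In the higher direction 0 of the 8 genes and 2.25% of all genes did. In 0 of 8 genes did every OSM-treated mouse lie below every PBS-treated mouse, as in 0.223% of all genes. Within litters, 2 of 8 (Lmnb1 and Lmnb2) had every OSM-treated mouse below the PBS-treated mice of its litter, as in 0.845% of all genes. These counts come from the contrast on which Lmnb2 was picked, and nothing is read from them.

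The number of calls depended on the tool. With DESeq2, a Wald test with litter as a term and no filter on low counts, 2 of the 8 genes had an adjusted p under 0.05, beside 0.763% of the 22014 genes given an adjusted p. They were Lmnb2 (log2 fold change -0.97 ± 0.18 SE, adjusted p = 4.81e-05 by DESeq2) and Lmnb1 (-0.63 ± 0.16 SE, adjusted p = 0.0112 by DESeq2). On the genes that passed the edgeR filter, DESeq2 gave adjusted p-values of 0.00294 for Lmnb2 and 0.117 for Lmnb1, so that 1 of the 8 was called, beside 0.412% of the 15066 genes given an adjusted p. The fold changes of the tools differed by no more than 0.01 for these genes, and the tools differed in the p-values.

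**Figure D2:**
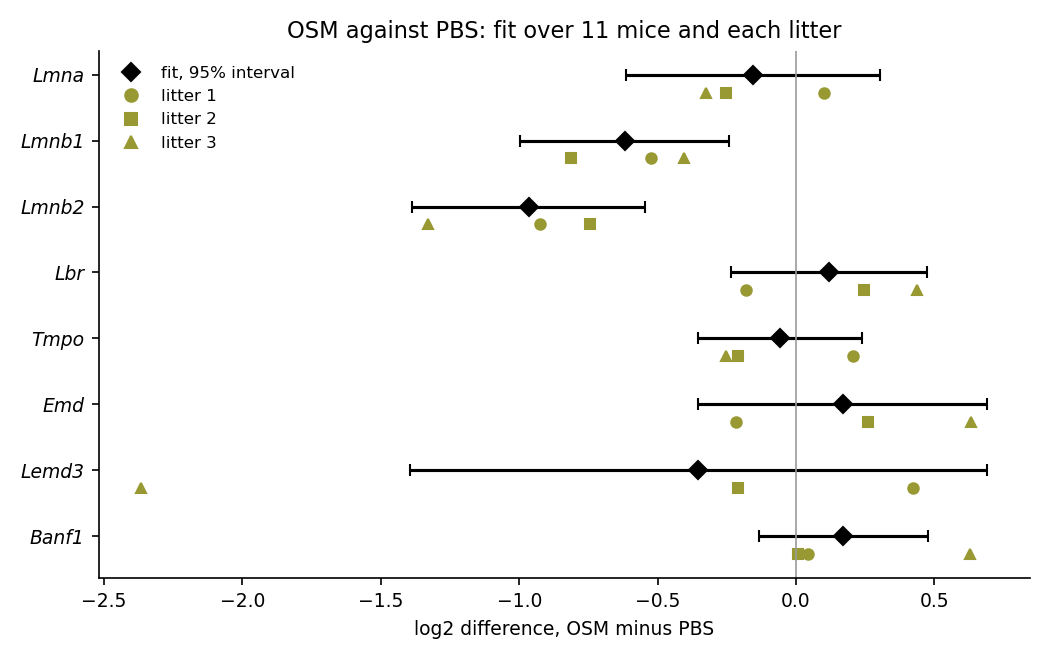
Log2 differences between OSM and PBS (horizontal axis) for the 8 genes: black diamonds with 95% intervals are the edgeR fit over 11 mice with litter as a term, and the olive symbols are the differences of mean log2 CPM within each litter. All 3 litters lie below 0 for Lmnb1 and Lmnb2, while Lemd3 runs from 0.42 in litter 1 to -2.36 in litter 3.

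The difference between litters was tested next, since the choice of the genes did not use it. By edgeR, 0 of 8 genes differed between litters at an adjusted p under 0.05, beside 0.0176% of all genes (3 of 17050), and DESeq2's likelihood ratio test also called 0 of 8. Unadjusted p-values under 0.05 were found for 2 of the 8 genes, beside 10.3% of all genes. Tmpo had 5572 ± 797 normalized counts in litter 1 (SD, n = 4), 4558 ± 773 in litter 2 (SD, n = 4) and 6748 ± 662 in litter 3 (SD, n = 3). Its edgeR p was 0.0211 before and 0.385 after adjustment. Lmnb2 had means of 1763 ± 643, 1137 ± 336 and 1372 ± 780 in litters 1, 2 and 3 (SD, n = 4, 4 and 3), with an edgeR p of 0.0295 before and 0.424 after adjustment. These means mix the treatments unequally, since litter 3 had 1 OSM-treated mouse. In the fit with treatment as a term, Lmnb2 differed from litter 1 by a log2 value of -0.60 in litter 2 and -0.57 in litter 3. Litter 3 was thus the highest for Tmpo, and litter 1 for Lmnb2, without a call in either gene.

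Whether the OSM difference varied between litters was tested with the interaction of treatment and litter. For 0 of 8 genes was it called, as for 0% of all genes, with 5 residual degrees of freedom. Without adjustment, 6.42% of all genes and 1 of the 8, Lemd3, had an edgeR p under 0.05 (0.0229 before and 0.679 after adjustment). The interaction p of Lmnb2 was 0.438 and that of Lmnb1 0.669 by edgeR before adjustment, which does not show that their differences were equal between litters. Lmnb2 was picked for a low p in the fit without this interaction, which favours genes with like differences in all litters. The interaction p of Lmnb2 is therefore a description.

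Levels of different genes were compared as normalized counts per kilobase of exon, over the union of all annotated exons. Banf1 had the highest level, 2699 ± 572 per kb (SD, n = 11 mice), followed by Lmna with 1341 ± 343. Lbr (521 ± 90.8) and Tmpo (484 ± 99.2) came next, then Lmnb1 (346 ± 106), Lmnb2 (312 ± 131) and Emd (209 ± 56.4), and Lemd3 was the lowest with 109 ± 55.6. The order among neighbours was tested by an exact sign-flip permutation test over the 11 mice, two-sided, with adjustment over the 7 neighbouring pairs. Of the 7 pairs, 4 differed beyond the spread between mice: Banf1 and Lmna (mean log2 ratio 1.02, 11 of 11 mice, adjusted p = 0.00342), Lmna and Lbr (1.34, 11 of 11 mice, adjusted p = 0.00342), Tmpo and Lmnb1 (0.52, 9 of 11 mice, adjusted p = 0.012), and Emd and Lemd3 (1.09, 10 of 11 mice, adjusted p = 0.00684). The smallest unadjusted p this test allows is 0.000977. For the remaining pairs the test found no difference: Lbr and Tmpo (exact permutation adjusted p = 0.472), Lmnb1 and Lmnb2 (0.36), and Lmnb2 and Emd (0.107).

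The order in the middle depended on the length used. With the longest protein-coding transcript in place of the exon union, Tmpo (1391 ± 285 per kb) stood above Lbr (724 ± 126), in 10 of 11 mice, with an adjusted p of 0.00342 by the exact permutation test. Lmnb2 and Lmnb1 were then level (mean log2 ratio 0.00, exact permutation adjusted p = 0.998). Banf1 and Lmna remained the top pair, and Lemd3 the lowest, on both scales.

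**Figure D3:**
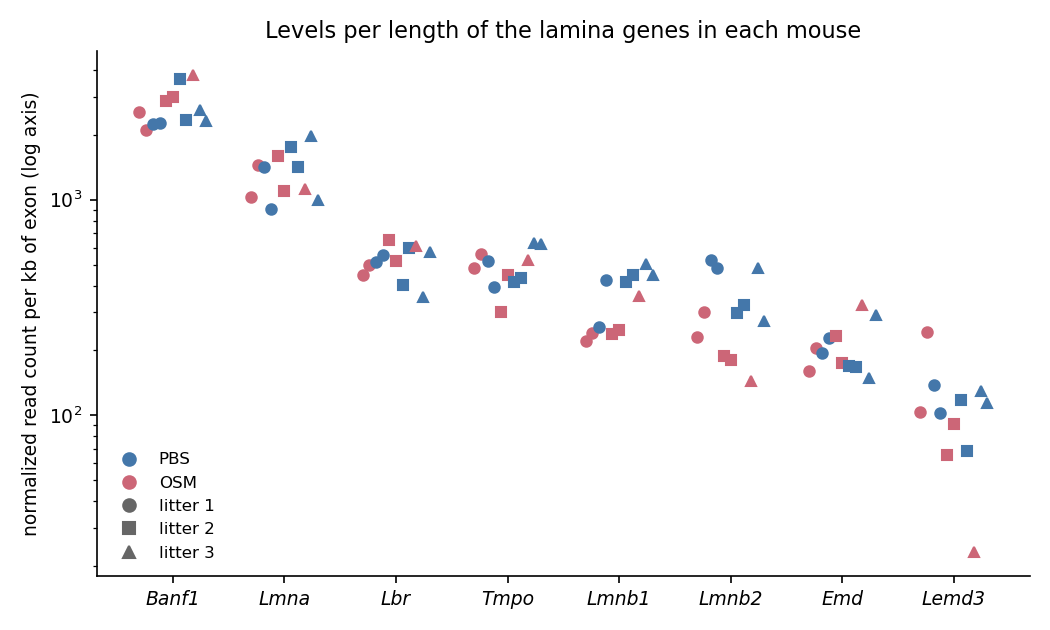
Normalized read counts per kb of exon (log axis) of the 8 genes in each of 11 mice, coloured by treatment and with litter as the symbol, in the order of their mean. Banf1 and Lmna lie above all other genes on average, and Lemd3 lies lowest, with the red triangle of mouse 9 at 23.4 per kb.

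Among the reads per kb of the 3 lamin genes, Lmna took 67.0% ± 7.77 (SD, n = 11), Lmnb1 17.5% ± 4.93 and Lmnb2 15.5% ± 5.45. The share of Lmna was 72.4% ± 3.92 with OSM (SD, n = 5) and 62.5% ± 7.46 with PBS (SD, n = 6). That of Lmnb1 was 15.4% ± 4.17 against 19.2% ± 5.18, and that of Lmnb2 12.2% ± 3.16 against 18.2% ± 5.62. In each litter, every OSM-treated mouse had a larger Lmna share and a smaller Lmnb2 share than both PBS-treated mice, although the groups as a whole overlapped. These shares come from the same counts as the fold changes and are a description only. With coding transcript lengths the shares of Lmna, Lmnb1 and Lmnb2 over all mice were 75.2%, 12.3% and 12.5%.

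**Figure D4:**
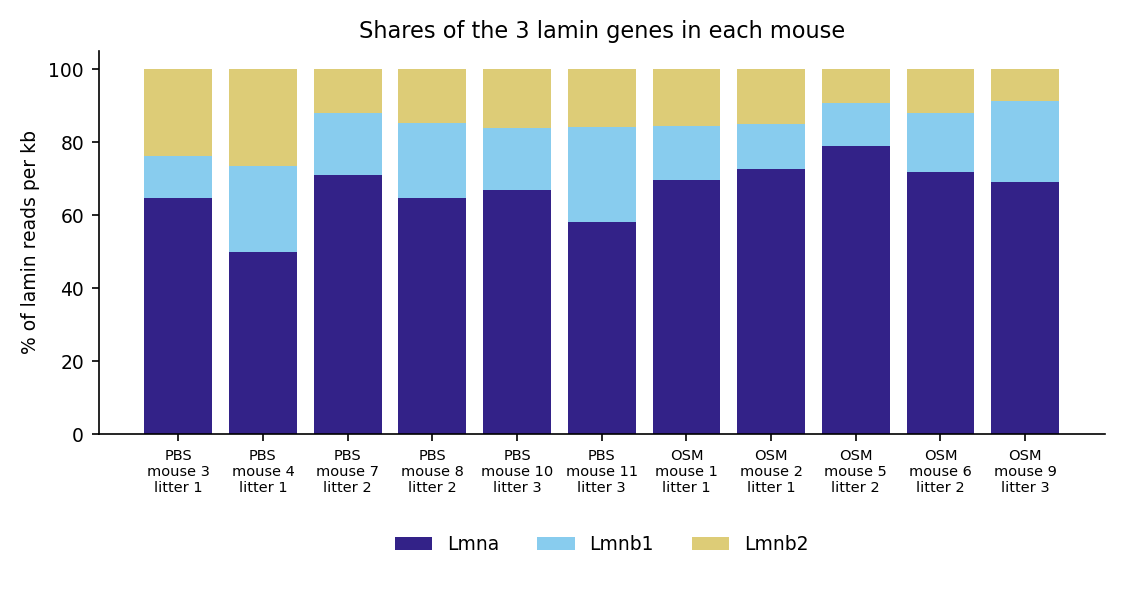
Share (%) of Lmna, Lmnb1 and Lmnb2 in the lamin reads per kb of each mouse, with PBS-treated mice on the left and OSM-treated mice on the right. The share of Lmna ranges from 49.98% (mouse 4, PBS) to 78.8% (mouse 5, OSM), and that of Lmnb2 from 8.88% (mouse 9, OSM) to 26.6% (mouse 4, PBS).

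Other genes of the nuclear envelope were read from fixed lists. Of 20 further envelope and lamina-binding genes, 18 were tested (not Syne3 and Syne4), and 0 were called, as were 0% of all genes. Fitted levels were lower for 10 and higher for 8 (median log2 fold change -0.04), where 51.6% of all genes were lower. Of the 18, 1 had an unadjusted edgeR p under 0.05, in the lower direction, beside 2.71% of all genes. It was Ankle2, a LEM-domain protein that acts on Banf1 at the end of mitosis. Its means were 1574 ± 384 with OSM and 2048 ± 299 with PBS (log2 fold change -0.40 ± 0.17 SE). The SUN-domain gene Sun1, part of the bridge between lamina and cytoskeleton, had 2818 ± 225 and 2355 ± 590. Of the 6 enzymes and partners of lamin maturation, 0 passed at an unadjusted p under 0.05, beside 4.96% of all genes. The farnesyltransferase subunit Fntb had 383 ± 81.6 and 553 ± 178 normalized counts, and Zmpste24, the protease that matures prelamin A, 3279 ± 349 and 3198 ± 726.

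Of 8 kinases, cyclins and caspase genes that act on the lamina, 4 had lower and 4 higher fitted levels. Of all genes, 51.6% had lower ones. By edgeR 0 were called, as were 0% of all genes. Prkcb alone had an unadjusted edgeR p under 0.05, beside 2.71% of all genes in the lower direction. Prkcb, which encodes protein kinase C beta, a kinase that phosphorylates lamin B, had 101 ± 112 normalized counts with OSM and 587 ± 198 with PBS (log2 fold change -2.68 ± 0.72 SE, edgeR adjusted p = 0.955, unadjusted p under 0.05). Every OSM-treated mouse lay below every PBS-treated mouse, as in 0.223% of all genes. Prkcb was the gene of this list called by DESeq2 (1 of 8), beside 0.763% of the 22014 genes given an adjusted p. Prkcb is also named in the study for these mice, so its direction is not independent evidence. Cdk1, the mitotic kinase that drives lamina breakdown, had 2496 ± 885 and 2904 ± 562 (log2 fold change -0.24 ± 0.19 SE).

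Of 30 nuclear pore genes, 29 were tested (not Nup58), 17 lower and 12 higher (median log2 fold change -0.11), and 0 were called. Of all genes, 51.6% were lower and 0% were called. Tpr, which forms the nuclear basket, had 4828 ± 964 normalized counts with OSM and 6615 ± 986 with PBS (log2 fold change -0.43 ± 0.14 SE, edgeR adjusted p = 0.955). Rae1, an mRNA export factor, had 3334 ± 660 and 2850 ± 549 (0.27 ± 0.10 SE, edgeR adjusted p = 0.955). These were the pore genes at an unadjusted p under 0.05, 1 lower and 1 higher. Of all genes, 2.71% were so in the lower and 2.25% in the higher direction.

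Of 22 proliferation genes, 20 had lower and 2 higher fitted levels, where 51.6% of all genes were lower (median log2 fold change -0.34), and 0 were called. This list shares Cdk1, Ccnb1 and Ccnb2 with the list of lamina kinases, cyclins and caspase genes, and the genes are not independent of one another. An unadjusted edgeR p under 0.05 in the lower direction was found for 3 of the 22, beside 2.71% of all genes: the replication licensing genes Mcm5 (log2 fold change -0.39 ± 0.15 SE) and Mcm3 (-0.37 ± 0.14 SE) and the proliferation marker Mki67 (-1.06 ± 0.46 SE). The mean log2 CPM over the list was 4.80 to 5.44 in OSM-treated and 5.32 to 5.93 in PBS-treated mice.

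The 8 genes were then related to this proliferation mean and to library depth (log2 of total reads) over the 11 mice, after litter and treatment had been removed from both sides. The 16 relations were tested by permutation (100000 resamples, two-sided), which takes the residuals as exchangeable. They are not strictly so, because the fit of litter and treatment left 7 residual degrees of freedom for 11 mice. The p-values of this test may therefore be too small. Lmnb1 ran against the proliferation mean (Pearson's r = -0.607, permutation p = 0.0484, adjusted 0.258; Spearman's rho = -0.709, permutation p = 0.0182, adjusted 0.146). The relation did not pass adjustment, and r was -0.291 without the 2 mice farthest from the median. For Lmnb2 the values were r = 0.182 (permutation p = 0.591, adjusted 0.9) and rho = 0.345 (p = 0.301, adjusted 0.803), with r = 0.14 without the 2 farthest mice. With depth, Lmnb1 had r = 0.697 (permutation p = 0.015, adjusted 0.241) and rho = 0.845 (p = 0.00173, adjusted 0.0277), so that its rank correlation passed adjustment and its linear one did not. Without the 2 farthest mice r was 0.702. Lemd3 had r = -0.627 with depth (permutation p = 0.0392, adjusted 0.258) and rho = -0.545 (p = 0.0877, adjusted 0.468), and r was -0.222 without the 2 farthest mice. Depth thus moved with the Lmnb1 level of these libraries by rank, and its part in the Lmnb1 difference between OSM and PBS was not tested.

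**Figure D5:**
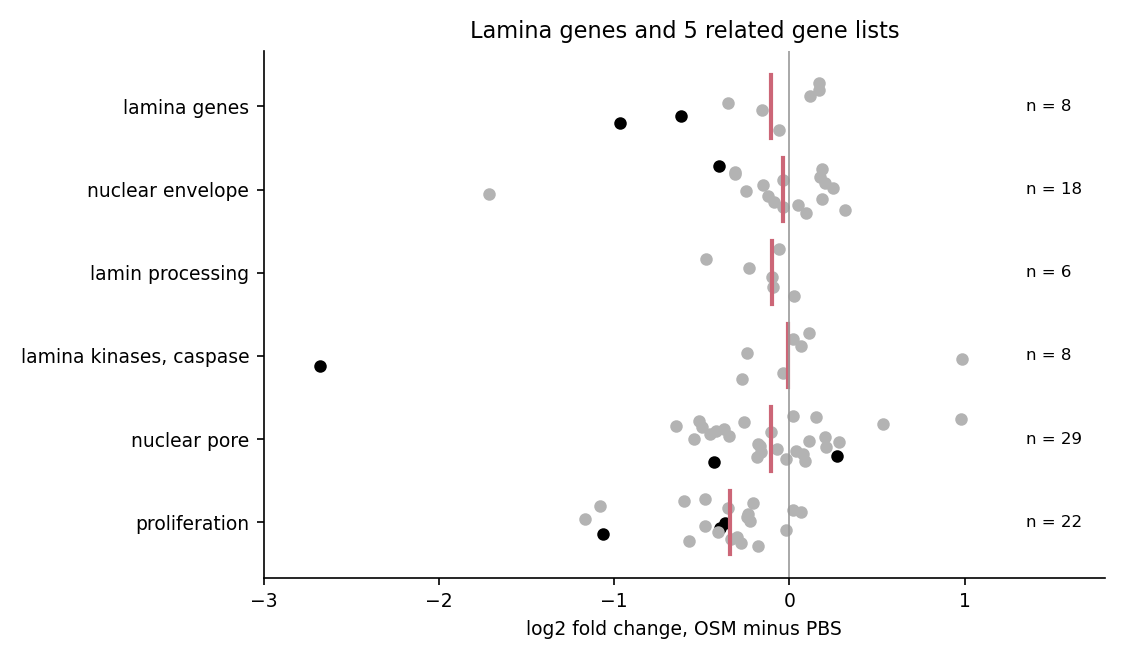
Log2 fold changes between OSM and PBS (horizontal axis) of the lamina genes and of the tested genes of 5 lists, with black points for an unadjusted edgeR p under 0.05, grey points for the rest and red lines for medians. The proliferation list has its median at -0.34, and the other lists have medians between -0.11 and -0.01.

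For each lamin gene, the genes whose pattern over the 11 mice was most like it were found by Pearson's r of log2 CPM after removal of litter and treatment, among 10910 genes. For Lmnb2 they were Rusc2, Manba, Csf3r, Cadm2 and Ice1 (r from 0.924 to 0.965). For Lmnb1 they were Ube2d1, Papss1, Prcp and Srpk2 (0.929 to 0.951), and for Lmna Ruvbl1, Avpi1, Cchcr1, Egln2 and BC005537 (0.895 to 0.935). The genes named differ between the 3 lamins and include no other member of the set. By the same measure, r was 0.715 between Lmna and Lmnb2, -0.212 between Lmna and Lmnb1 and -0.0872 between Lmnb1 and Lmnb2. The genes named have the highest of many values over few mice, and all these values are a description only.

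The genes lie on different chromosomes of GRCm39, apart from Lmnb2 (chr10:80737037-80754110, minus strand), Tmpo (chr10:90983375-91017177, minus strand) and Lemd3 (chr10:120759304-120815816, minus strand). Lmna lies at chr3:88387454-88417299 (minus strand), Lbr at chr1:181641631-181672984 (minus strand), Emd at chrX:73298286-73305169 (plus strand) and Banf1 at chr19:5414660-5417614 (minus strand). Lmnb1 lies at chr18:56840590-56886496 (plus strand). The library kit does not mark strand, and reads that fall on exons of more than 1 gene were dropped. No exon bases of Lmna, Lmnb2 or Tmpo are shared with another gene. Lmnb1 shares 12.9% of its exon bases with Marchf3, Lbr 12.9% with Dnah14 and Gm55354, Emd 9.26% with Gm14686 and Lemd3 1.95% with Gm4473. Banf1 shares 42.9% with Eif1ad on the opposite strand, so its level per kb is uncertain. Of the 50-base windows of Emd exons, 12.2% had no unique alignment (unaligned or of the lowest mapping quality), against 0.418% to 2.6% in the other 7 genes.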

How the data were processed

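Endothelial cells of 11 mice were profiled by RNA sequencing. Per the labels and methods, a SMARTer kit made cDNA from poly(A) RNA, with PCR and without molecular identifiers or strand. Single reads were mapped by STAR (genome GRCm39), and featureCounts assigned them to GENCODE genes. As deposited, the counts are unscaled whole reads per gene. Sample identity followed the labels, and the column headers of 2 PBS files carry other mouse numbers than the labels. The counts were normalized by TMM (factors 0.972 to 1.02), filtered with filterByExpr (count minimum 10) and tested with edgeR 4.0.16 in R 4.3.3 (robust quasi-likelihood, litter and treatment as terms, Benjamini-Hochberg adjustment over all genes, threshold 0.05). DESeq2 1.42.0 was an alternative. Within-litter differences are of log2 CPM (prior count 2). A first run with filterByExpr by treatment group kept 13742 genes and is listed as an alternative. The code was tested on simulated data. Windows of 50 bases were aligned with minimap2 2.31. Symbols came from GENCODE vM39 (54749 of 55359 identifiers). Named from each list were the genes at an unadjusted p under 0.05, at most the 5 lowest, and for likeness the 5 highest r among genes with a mean of at least 100 normalized counts (1 of these for Lmnb1 is not reported here). Sun1, Fntb, Zmpste24 and Cdk1 were named outside this rule, after their values were seen. The members and lists were chosen with earlier results of these data known. Each sample is 1 mouse, and errors are spreads over mice, since reads are not independent molecules. The relations with proliferation and depth were added after the data had been seen.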

Additional observations from a re-analysis of the deposited data

Results flagged for a closer look

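The highest OSM-treated mouse for Lmnb1 (mouse 9, 1295 normalized counts) stood apart from the other 4: its gap to the next value was 0.794 of the range of the group, above Dixon's critical value of 0.71 for 5 samples. The lowest PBS-treated mouse for Lmnb1 (mouse 3, 931 normalized counts) had a gap of 0.637 of the range, also above the critical value for its 6 samples. The highest PBS-treated mouse for Banf1 (mouse 7, 10120 normalized counts) had a gap of 0.737 of the range. These were 3 of 16 groups tested, and chance gives such a gap in about 1 in 20 groups. The groups pooled the litters, and mouse 9 was the only OSM-treated mouse of litter 3. Lmnb1 had litter means of 1034, 1216 and 1575 in litters 1, 2 and 3. These means mix the treatments unequally, and that of litter 3 includes mouse 9. With treatment as a term, the litter difference of Lmnb1 had an edgeR p of 0.0898 before and 0.551 after adjustment. Mouse 9 and its litter cannot be told apart here. Mouse 9 had the deepest library, and mouse 3 had the shallowest one and the most genes with reads. Over all 11 mice, after removal of litter and treatment, Lmnb1 was higher in deeper libraries (Spearman's rho = 0.845, adjusted permutation p = 0.0277).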

How the results depend on the processing

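The fold changes of the 8 genes were recomputed under 21 alternatives each, 168 values in all, of which 158 kept their direction and their side of the threshold. Lmnb2 stayed between -1.11 and -0.83 and Lmnb1 between -0.72 and -0.51. Of the 8 genes, 0 were called with all mice, with DESeq2 size factors, without robust estimation, without the litter term, with the filter by treatment group or without any mouse (0 to 0) or litter. The number was 1 without a filter on low counts (Lmnb2, adjusted p = 0.038 by edgeR, beside 65 of 28940 genes), 2 with DESeq2 (168 of 22014) and 1 with DESeq2 on the genes passing the edgeR filter (62 of 15066), and the cause was not tested. The 2 genes at an unadjusted p under 0.05 became 1 without litter 2 and 3 without mouse 7. Tmpo changed sign without mouse 5 or 9 (-0.15 to 0.036 over the mice left out), litter 2 (0.015) or litter 3 (0.0040), and Lemd3 without mouse 9 (-0.73 to 0.14) or litter 3 (0.14), whose single OSM-treated mouse was mouse 9. The calls for litter and for the interaction stayed at 0 of 8 under each alternative run. Of the 7 neighbouring pairs of levels, 4 to 5 differed without single mice and 5 with coding lengths. The number was 0 in OSM-treated mice alone and 0 in PBS-treated mice alone, where the exact permutation test cannot go below p = 0.0625 and 0.0312, the latter before adjustment. Without a filter, the unadjusted counts were 2 envelope, 5 pore and 8 proliferation genes in place of 1, 2 and 3, beside 5.81% of all genes in place of 4.96%. The lowest count of the 8 genes in any mouse was 208 reads. The relation of Lmnb1 to depth passed adjustment by rank and not in its linear form.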

Other observations

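Syne1, which encodes a nesprin that ties the nuclear envelope to the cytoskeleton, was singled out after its values were seen. It had 228 ± 201 normalized counts with OSM (SD, n = 5) and 617 ± 110 with PBS (SD, n = 6). In this gene, as in 0.223% of all genes, every OSM-treated mouse lay below every PBS-treated mouse. Its log2 fold change was -1.72 ± 1.00 (SE), with an edgeR p of 0.115 before and 0.984 after adjustment. The differences within litters 1, 2 and 3 were -1.09, -4.26 and -3.69. Syne2, the related nesprin gene, had 2371 ± 909 and 2541 ± 462 normalized counts. Ndc1, a membrane nucleoporin gene, had the highest fitted log2 fold change of the pore list, 0.98, with an edgeR p of 0.202 before adjustment, and was also singled out after its values were seen.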
